A study of Mus musculus with 4 samples.

Results

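The genes of glycolysis, the pentose phosphate pathway and glycogen metabolism were examined in HT-22 cells, an immortalized line from mouse hippocampal neurons. The genes were taken from a list of 35 transporters, enzymes and regulators chosen by function, without lactate dehydrogenase, and 34 of them were present among the 11502 genes of the deposited table. The list was made with earlier results of these data known. Slc2a3 was not analysed here. The mean level of Pfkfb3 over the 4 libraries was under 1 FPKM (fragments counted per length of transcript and per mapped fragment of the library), so 33 genes were compared between groups.

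RNA-Seq was performed on 4 groups with 1 library each. The Ctrl group was HT-22 cells, labelled wild type and given no treatment, and the PGC-1α group was the same line with PGC-1α-overexpressing lentivirus. The paper describes a negative control lentivirus for control cells, which the source label of Ctrl does not name. By the paper's methods, transfected cells were selected with puromycin, which all 4 groups share if the control cells had that virus. The Ctrl+OGD and PGC-1α+OGD groups were these cells after oxygen and glucose deprivation (OGD) for 2 h without serum and glucose, followed by 24 h in normal medium, so the RNA describes the cells after return to oxygen and glucose. Because each group had 1 library, no difference has a replicate check, no p value was computed, and a difference below compares 2 libraries. Where 4 values are given without names, they stand in the order Ctrl and PGC-1α without OGD, then the same groups after OGD.

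Glycolysis splits glucose into pyruvate in the cytosol and yields ATP without oxygen. Its first steps trap and phosphorylate the sugar, and its later steps return ATP. The pentose phosphate pathway branches off at glucose 6-phosphate, where its oxidative arm makes NADPH and its non-oxidative arm makes ribose phosphate and returns carbon to glycolysis. Glycogen stores glucose, mainly in astrocytes in the brain, and neurons are known to rely on the pentose phosphate pathway for antioxidant NADPH. Many glycolysis genes are known targets of the hypoxia-inducible factor HIF-1, and PGC-1α is best known as a coactivator of genes of mitochondrial respiration.

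Ppargc1a, which encodes the overexpressed PGC-1α, had 0.900 FPKM in Ctrl and 35.1 in PGC-1α, and 0.103 and 8.41 after OGD. It was thus high in both libraries with the overexpressing virus, and lower in the one after OGD. The table lists values per transcript with column totals from 331892 to 353381 FPKM, and the reads per library are unknown, so the counting error of a value cannot be given. The share of mitochondrial transcripts was 4.23% and 4.37% in the libraries without the virus for PGC-1α and 5.32% and 5.31% in those with it. Of 12 neuronal marker genes, 11 were not listed in the table, among them Map2, Rbfox3 and Snap25, and the remaining one, Syp, was between 0.258 and 0.997 FPKM. The collagen genes Col1a1 and Col1a2 were between 156 and 265 FPKM in every library, and Pdgfra was between 37.2 and 60.3 FPKM, while Dcn and Lum, the other 2 of 5 fibroblast markers, were not listed. The label of hippocampal neurons is thus not borne out by these markers, and the cells are called HT-22 cells here. The table was filtered in a way not given, so a gene that is not listed has no measured value. The listed markers of the hippocampal (1 of 4 present), astrocyte (2 of 5), microglial (2 of 6) and oligodendrocyte (1 of 4) lists summed to between 0.740 and 10.6 FPKM. The hippocampal marker present, Wfs1, was at 10.6, 7.45, 4.04 and 4.66 FPKM. The sum of the proliferation markers Mki67, Top2a and Ccnb1 was 289 FPKM in Ctrl and 353 in PGC-1α, and 344 and 392 after OGD, and its part in the results below was not tested.

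In each library, a few enzymes of glycolysis held most of the measured level. The 5 most abundant genes were Aldoa, Eno1, Pkm, Gapdh and Pgk1 in all 4 libraries, and they held between 54.1% and 59.4% of the summed level of the 34 genes. That summed level was 1699 FPKM in Ctrl and 2274 in PGC-1α, and 2177 and 2294 after OGD, or between 0.512% and 0.673% of the total. Ctrl had the lowest sum, and the other 3 libraries lay close to each other. Ctrl was also lowest for the sums of upper glycolysis, lower glycolysis and both arms of the pentose phosphate pathway. The 6 genes of lower glycolysis summed to 752 FPKM in Ctrl and 1024 in PGC-1α, and 1076 and 1124 after OGD. The 3 genes of the oxidative pentose phosphate arm summed to 80.9 and 102 FPKM, and 132 and 113 after OGD, whereas the 5 genes of glycogen synthesis summed to between 125 and 134 FPKM. Median levels of the 34 genes were 24.3 to 32.2 FPKM, against 12.3 to 12.8 FPKM for all genes compared.

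**Figure D1:**
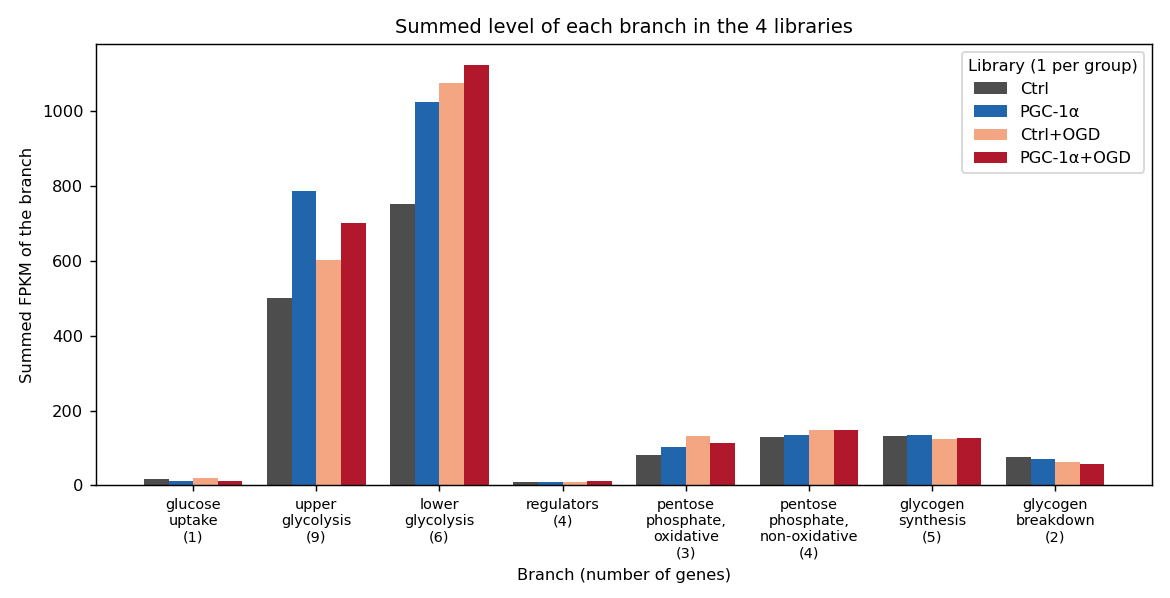
Summed FPKM of the genes of each branch (vertical axis) in the 4 libraries, with the number of genes of a branch in parentheses and 1 library per bar. Upper and lower glycolysis were lowest in Ctrl, at 501 and 752 FPKM, while glycogen synthesis ran from 125 to 134 FPKM and glycogen breakdown from 58.6 to 76.0.

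**Figure D2:**
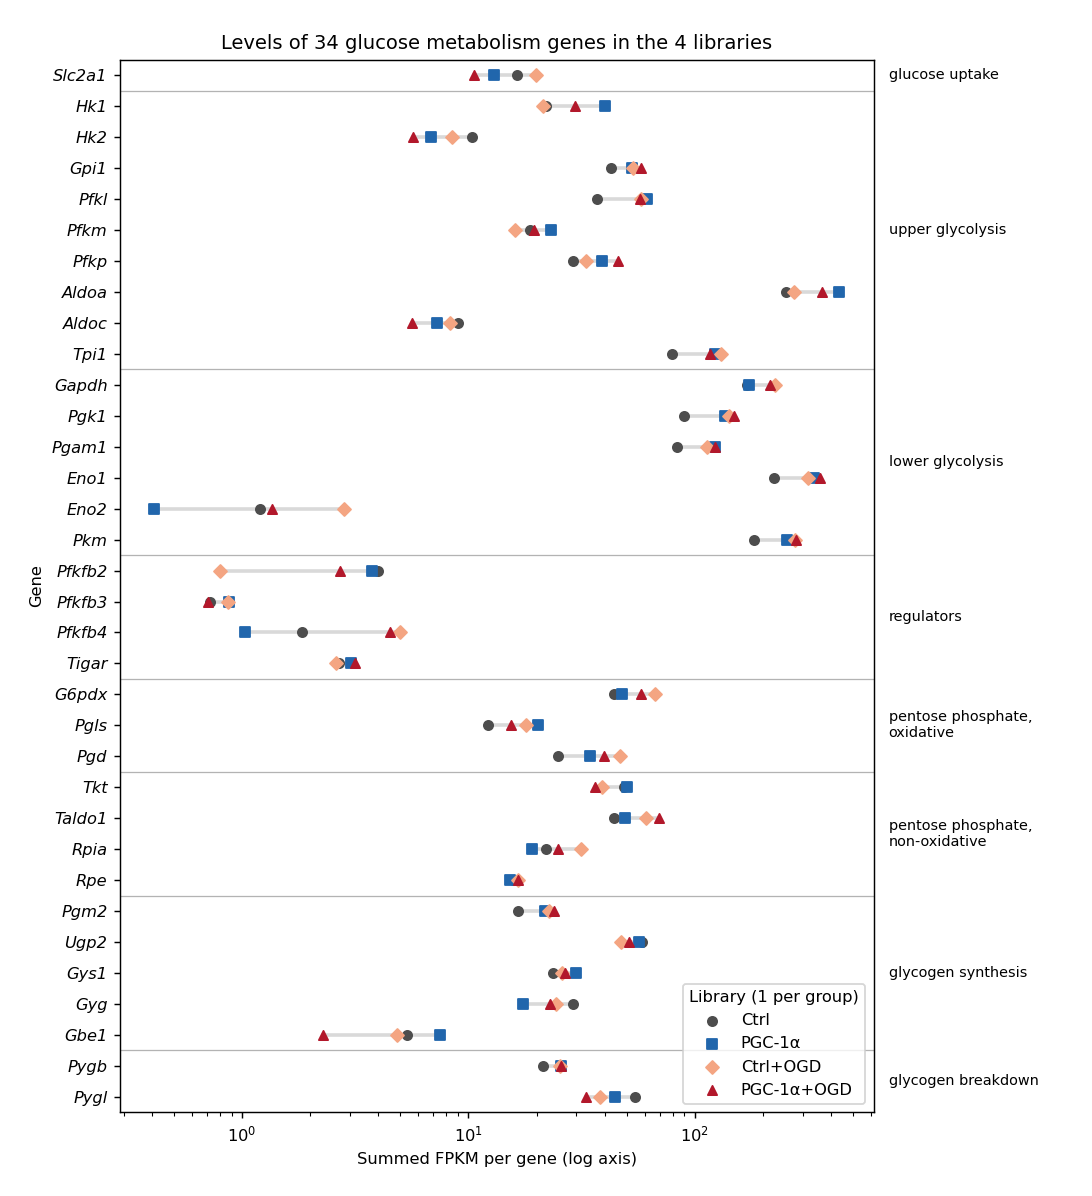
Summed FPKM (log axis) of each of the 34 genes in the 4 libraries, 1 point per library, with a line from the lowest to the highest value. The levels ran from 0.410 FPKM for Eno2 to 435 FPKM for Aldoa in PGC-1α, and Ctrl was lowest for most glycolysis enzymes.

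The comparison of PGC-1α with Ctrl asks how overexpression altered expression in cells that had not been deprived. Fold changes are differences of log2(FPKM + 1), and the words higher and lower in a count mean a difference of at least 1.5-fold, a log2 value of 0.58. Of the 33 genes, 6 were higher (Hk1, Aldoa, Pfkl, Pgls, Tpi1 and Pgk1) and 2 were lower (Gyg and Eno2). Over all 10604 genes compared, 4.91% were higher and 5.63% were lower. The share of higher genes, 18.2%, was thus above the background, and the share of lower genes, 6.06%, was close to it. The paper reports glycolysis and gluconeogenesis among the pathways of its genes up-regulated by PGC-1α in these data. The list was also made with earlier results known, so the share of higher genes is no independent support. The median log2 fold change was 0.25, against -0.03 for all genes, and 22 of the 33 genes were above 0 (66.7%, against 45.8% of all genes). Because RNA of whole cultures was measured, fewer cells that express a gene and less of its RNA per cell cannot be told apart.

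The comparison after OGD had a lower level of Ppargc1a in the overexpressing cells, at 8.41 FPKM against 35.1 without OGD, and the part of this level in the values below was not tested. In PGC-1α+OGD vs Ctrl+OGD, only Pfkfb2 was higher among the 33 genes, and 3 were lower (Slc2a1, Gbe1 and Eno2). The background was 3.08% higher and 3.82% lower, against 3.03% and 9.09% of these genes. The median log2 fold change was -0.0038, against -0.01 for all genes, with 16 genes above 0 (48.5%, against 47.1% of all genes) and 17 below.

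The response to OGD was read in both kinds of cells. In Ctrl+OGD vs Ctrl, 8 of the 33 genes were higher (Pfkfb4, Pgd, Eno2, Tpi1, Pgk1, Pfkl, G6pdx and Pkm) and 1 was lower (Pfkfb2), where the background was 6.2% higher and 7.71% lower. The shares of these genes were 24.2% and 3.03%, and the median log2 fold change was 0.25, against -0.02 for all genes. When the libraries were scaled to the same column total, 4 genes were higher and 2 lower, and the background became 4.69% higher and 10.4% lower. Pfkl (0.55), Pgk1 (0.58), Pkm (0.51) and G6pdx (0.51) were then below the line, and Pygl (-0.60) was past it. In PGC-1α+OGD vs PGC-1α, Pfkfb4 and Eno2 were higher and Gbe1 was lower, or 6.06% and 3.03% of the genes against a background of 3.82% and 5.22%. The median was 0.0060 there, against 0.00070 for all genes.

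The Ctrl library is the reference both for PGC-1α and for Ctrl+OGD, so the values of those comparisons are not independent. Each library stands in 2 of the 4 comparisons, whereas the pair of comparisons of PGC-1α cells with control cells has no library in common. That pair may still share cultures. The paper describes OGD after transfection and selection, and does not say whether libraries of the same kind of cells came from separate transfections. A difference between transfected cultures and an effect of PGC-1α therefore cannot be told apart. Ctrl was the lowest of the 4 libraries for 17 of the 33 genes (51.5%), against 28.2% of all genes compared. Each of the other 3 libraries was lowest for 5 or 6 of the 33 genes. A property of the Ctrl library and an effect of the conditions cannot be told apart with 1 library per group.

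**Figure D3:**
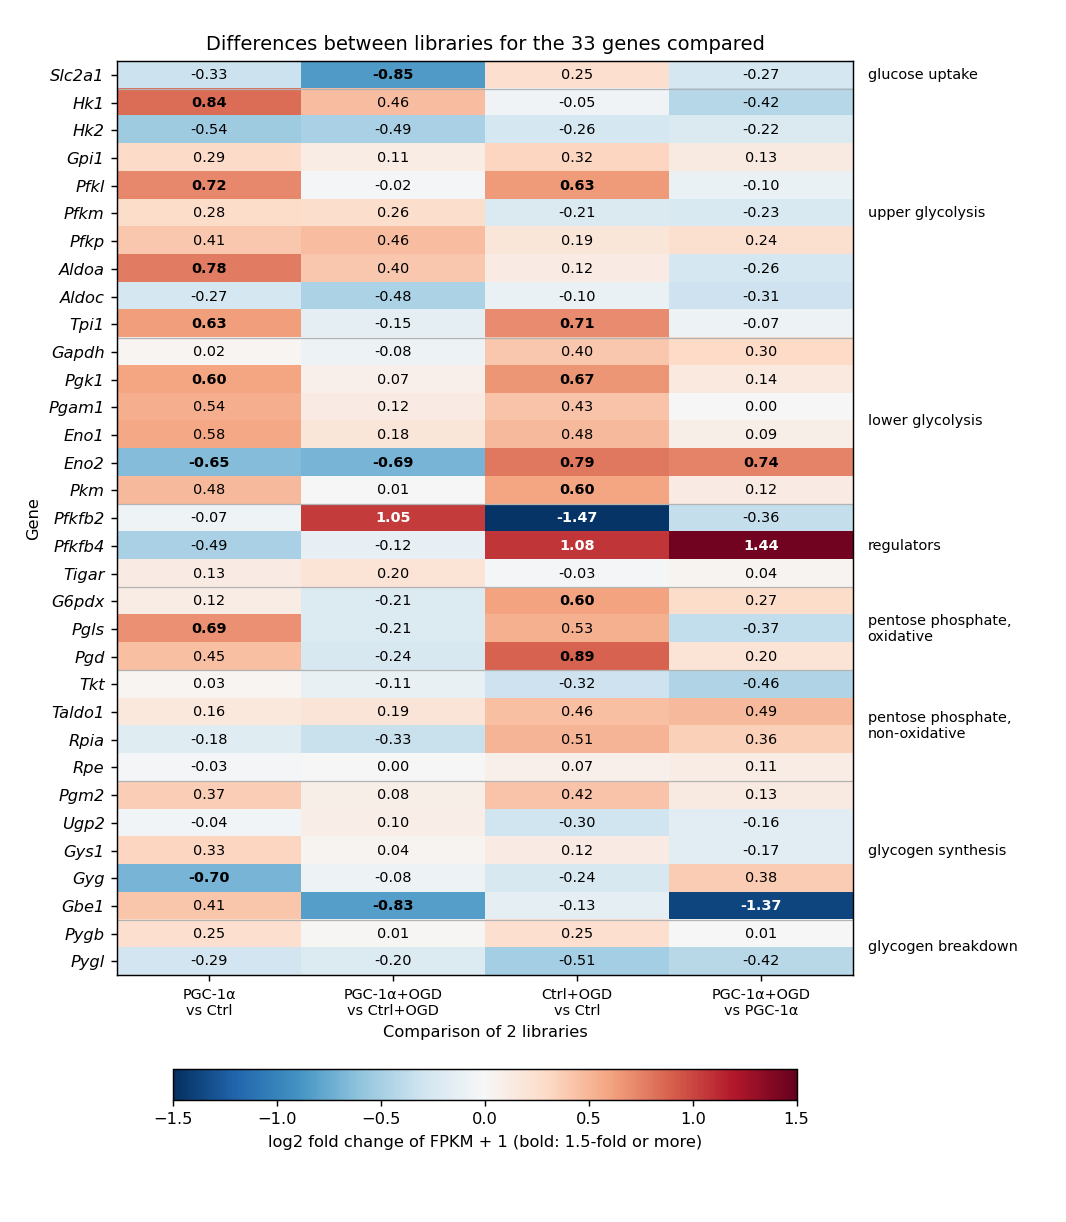
log2 fold change of FPKM + 1 (colour and printed value) for the 33 genes in the 4 comparisons of 2 libraries, with changes of 1.5-fold or more in bold. Higher values of glycolysis enzymes stand mainly in the columns that use the Ctrl library as reference.

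The genes of uptake and phosphorylation of glucose differed in direction. Slc2a1, the widely expressed glucose transporter GLUT1 (chr4:119108711-119137983, GRCm38, plus strand), was at 16.5 FPKM in Ctrl and 12.9 in PGC-1α, and 19.8 and 10.6 after OGD. It was lower in both libraries with PGC-1α, by 0.33 without OGD and by 0.85 after OGD on the log2 scale, and only the latter passed 1.5-fold. Hk1, the hexokinase that binds the outer mitochondrial membrane and prevails in the brain (chr10:62268855-62379908, minus strand), was at 22.1 FPKM in Ctrl and 40.2 in PGC-1α, and 21.3 and 29.7 after OGD. Hk1 had the largest positive difference of the 33 genes with PGC-1α without OGD (log2 fold change 0.84) and was at 0.46 after OGD, below 1.5-fold. Hk2, the inducible hexokinase and a known HIF-1 target, was at 10.3 FPKM in Ctrl and 6.81 in PGC-1α, and 8.43 and 5.71 after OGD. Its log2 fold changes with PGC-1α were -0.54 and -0.49, both under 1.5-fold on this scale, although with a pseudocount of 0.1 or 0.01 the first was past it (-0.59 and -0.60). The share of Hk1 in the summed level of both hexokinases was 68.1% in Ctrl and 71.6% in Ctrl+OGD, and 85.5% in PGC-1α and 83.9% in PGC-1α+OGD. Both libraries with PGC-1α were above both without it in this share. How often all genes separate in such a way was not computed. The same holds for every like statement on a gene, transcript or share, so no weight is put on them. Such statements concern Slc2a1, Aldoa, Gapdh, Pkm and its M2 form, Pfkfb4, G6pdx, Pgd, Tkt, Taldo1 and Rpia.

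Of the middle steps, Pfkl, Aldoa and Tpi1 were higher with PGC-1α without OGD. Phosphofructokinase, the main point of control of glycolysis, is a tetramer of liver, muscle and platelet subunits. The liver subunit Pfkl was at 37.0 FPKM in Ctrl and 61.4 in PGC-1α, and 57.9 and 57.1 after OGD. Ctrl thus stood apart from the other 3 libraries, and the log2 fold change with PGC-1α was 0.72 without OGD and -0.02 after OGD. The muscle subunit Pfkm and the platelet subunit Pfkp passed 1.5-fold in none of the 4 comparisons, with log2 fold changes of 0.28 and 0.26 for Pfkm and 0.41 and 0.46 for Pfkp in the comparisons of PGC-1α with control. By its most abundant transcript alone, Pfkp was past it with PGC-1α without OGD (0.72). Pfkl made up between 43.6% and 54.1% of the 3 subunits in every library. The isomerase Gpi1, between 42.7 and 57.8 FPKM, also passed 1.5-fold in none of them.

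Aldoa, the aldolase of muscle and most other cells, was the most abundant gene of the list in 3 of 4 libraries, with Eno1 and Pkm above it in Ctrl+OGD. It was at 253 FPKM in Ctrl and 435 in PGC-1α, and 275 and 363 after OGD, and was higher in both libraries with PGC-1α. Its log2 fold change was 0.78 without OGD and 0.40 after OGD, of which the first passed 1.5-fold. Aldoc, the aldolase of brain that marks astrocytes, had lower values with PGC-1α, at 8.97, 7.28, 8.28 and 5.66 FPKM in the same order, with log2 fold changes of -0.27 and -0.48. Tpi1, the triose phosphate isomerase, was at 79.3 FPKM in Ctrl and between 117 and 130 in the other 3 libraries. It therefore passed 1.5-fold in PGC-1α vs Ctrl (0.63) and in Ctrl+OGD vs Ctrl (0.71), and was at -0.15 in PGC-1α+OGD vs Ctrl+OGD.

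Lower glycolysis, which returns ATP, had its lowest values in Ctrl for 5 of 6 genes, with Eno2 as the exception. Pgk1, phosphoglycerate kinase (chrX:106187100-106203699, plus strand), was at 89.2 FPKM in Ctrl and 135 in PGC-1α, and 142 and 150 after OGD. It was the gene of this branch that passed 1.5-fold upwards with PGC-1α, at a log2 fold change of 0.60, and it was at 0.57 when the libraries were scaled to the same total. Eno1, the enolase of most tissues, lay just below the line at 0.579, and was past it with median ratio scaling (0.61) or upper quartile scaling (0.59). Eno1 was at 225, 337, 315 and 357 FPKM, and reads of its retrotransposed copy Eno1b, listed at 85.4 to 133 FPKM, cannot be separated from it with certainty. Pgam1, the mutase between them, was at 83.8 FPKM in Ctrl and between 113 and 123 in the other libraries. Gapdh, often used as a reference gene, was at 170 FPKM in Ctrl and 173 in PGC-1α, and 226 and 214 after OGD. Gapdh had nearly the same value with and without PGC-1α (log2 fold changes 0.02 and -0.08), and values 0.40 and 0.30 higher on the log2 scale after OGD in the 2 kinds of cells. Eno2, the neuron-specific enolase, was at 1.20 FPKM in Ctrl and 0.410 in PGC-1α, and 2.81 and 1.36 after OGD. It was lower with PGC-1α in both comparisons (-0.65 and -0.69) and higher after OGD in both (0.79 and 0.74), at levels near 1 FPKM. In PGC-1α+OGD, 1.12 FPKM of Eno2 came from a transcript listed at 0 in the other 3 libraries, and its more abundant transcript alone had a log2 fold change of -0.19 after OGD in these cells.

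Pkm, pyruvate kinase of muscle and most other tissues, makes the last step of glycolysis. The gene (chr9:59656368-59679375, plus strand) was at 183 FPKM in Ctrl and 256 in PGC-1α, and 277 and 279 after OGD. Its sum was thus lowest in Ctrl, with log2 fold changes of 0.48 with PGC-1α and 0.60 with OGD in control cells (0.34 by its most abundant transcript alone). Its pre-mRNA is spliced into an M1 form, known from muscle and neurons, or an M2 form, known from proliferating cells, which differ in a pair of mutually exclusive exons of equal length. These exons are printed because they tell the transcripts apart, in the annotated coding direction, with capitals at the 64 of 167 bases that differ between them.
Pkm, M1 exon (chr9:59675029-59675195, GRCm38, plus strand, exon 9 of its transcript): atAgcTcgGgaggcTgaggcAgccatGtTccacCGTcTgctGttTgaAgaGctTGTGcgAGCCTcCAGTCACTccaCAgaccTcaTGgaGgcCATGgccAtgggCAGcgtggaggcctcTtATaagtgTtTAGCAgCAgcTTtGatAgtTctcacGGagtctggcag
Pkm, M2 exon (chr9:59675568-59675734, GRCm38, plus strand, exon 9 of its transcript): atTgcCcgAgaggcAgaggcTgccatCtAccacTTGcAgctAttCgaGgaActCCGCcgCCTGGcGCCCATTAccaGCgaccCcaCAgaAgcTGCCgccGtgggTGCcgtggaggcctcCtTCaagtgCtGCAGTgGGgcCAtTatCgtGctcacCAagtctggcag
The remaining 61.7% of the bases were identical.

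The M2 form was higher after OGD in both kinds of cells. Of the 8 deposited Pkm transcripts, 1 holds the M1 exon and 1 the M2 exon, and those with neither held between 1.58% and 2.01% of the gene's level. The transcript with the M2 exon was at 68.9 FPKM in Ctrl and 80.1 in PGC-1α, and 133 and 142 after OGD. Both libraries after OGD were above both libraries without it, and the log2 fold changes after OGD were 0.93 and 0.82. The transcript with the M1 exon was at 111, 171, 140 and 132 FPKM in the same order, and passed 1.5-fold with PGC-1α without OGD (0.62) but not after OGD (-0.08). The share of the M2 form was 37.7% in Ctrl and 31.3% in PGC-1α, and 47.8% and 51.0% after OGD. Both forms were present in these proliferating cells in every library, and the split rests on how the authors' program, which is not named, assigned reads to transcripts.

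Of the regulators, 6-phosphofructo-2-kinases make and remove fructose 2,6-bisphosphate, the strongest activator of phosphofructokinase. Pfkfb4, a form known to respond to hypoxia, was at 1.84 FPKM in Ctrl and 1.03 in PGC-1α, and 5.00 and 4.51 after OGD. Both libraries after OGD were above both without it, and the log2 fold changes after OGD, 1.08 and 1.44, were the largest positive ones of the 33 genes in both comparisons. Pfkfb2, the form of heart and other tissues, had 3.98, 3.76, 0.795 and 2.70 FPKM, and was low in Ctrl+OGD. Its log2 fold change was -1.47 in Ctrl+OGD vs Ctrl and 1.05 in PGC-1α+OGD vs Ctrl+OGD, and each of them rests on the value of the Ctrl+OGD library. By its most abundant transcript alone, the latter was 0.53 and under 1.5-fold. Pfkfb3, a form with high kinase activity, was between 0.704 and 0.875 FPKM in all 4 libraries and was not compared. The share of Pfkfb4 in the 3 kinases was 28.2% in Ctrl and 18.1% in PGC-1α, and 75.1% and 57.0% after OGD. The 3 kinases summed to only 5.66 to 7.92 FPKM, so this share rests on low values. The low Pfkfb2 value of Ctrl+OGD also raises it in that library. Tigar, which removes fructose 2,6-bisphosphate, was between 2.60 and 3.14 FPKM and stayed under 1.5-fold in the 4 comparisons.

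**Figure D4:**
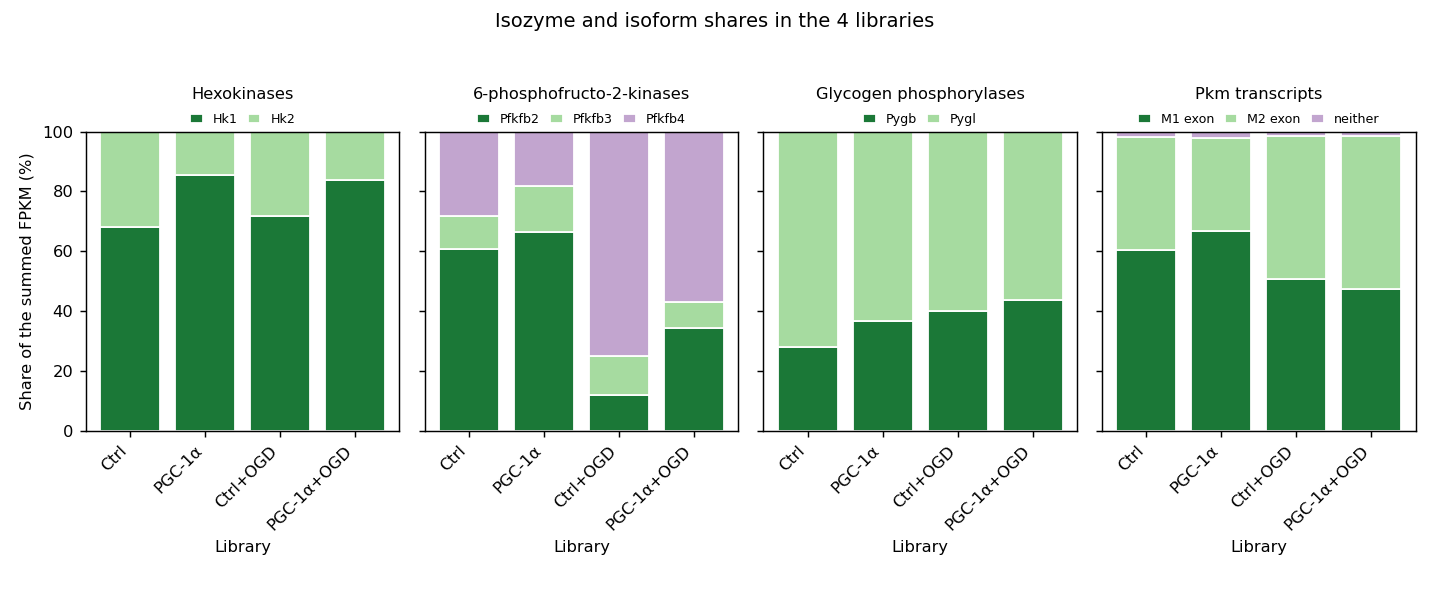
Share (%) of the summed FPKM held by each hexokinase, each 6-phosphofructo-2-kinase, each glycogen phosphorylase and each group of Pkm transcripts, in the 4 libraries (1 per group). The Hk1 share is higher in the 2 libraries with PGC-1α, and the shares of Pfkfb4 and of the Pkm M2 exon are higher in the 2 libraries after OGD. The 6-phosphofructo-2-kinases sum to only 5.66 to 7.92 FPKM.

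In the oxidative arm of the pentose phosphate pathway, G6pdx and Pgd were higher after OGD in control cells. G6pdx, glucose 6-phosphate dehydrogenase and the entry to the pathway, was at 43.8 FPKM in Ctrl and 47.5 in PGC-1α, and 66.8 and 57.7 after OGD. Pgd, the next enzyme that makes NADPH, was at 25.0, 34.4, 46.9 and 39.7 FPKM. For both genes the libraries after OGD stood above those without it, and Ctrl+OGD was highest. The log2 fold changes of Ctrl+OGD vs Ctrl were 0.60 for G6pdx and 0.89 for Pgd, and those of PGC-1α+OGD vs PGC-1α were 0.27 and 0.20, under 1.5-fold. With upper quartile scaling, G6pdx was at 0.57 and so below the line. Pgls, the lactonase between them, was at 12.2 FPKM in Ctrl and 20.2 in PGC-1α, and 18.1 and 15.5 after OGD, with a log2 fold change of 0.69 for PGC-1α vs Ctrl. One transcript of Pgls was listed at 0 in Ctrl and at 6.01 to 16.5 FPKM in the other libraries, and another was at 2.69 to 12.2 FPKM, so the split of its level differed between libraries. Pgls shares exon sequence with Fam129c, listed at 0.718 to 1.21 FPKM. Exons are also shared by Pfkm with Gm26513, Pfkfb2 with Gm29427, Pkm with Gm49759 and Tkt with Mir3076.

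In the non-oxidative arm no gene passed 1.5-fold in any of the 4 comparisons. Tkt, transketolase, was at 48.8 FPKM in Ctrl and 50.01 in PGC-1α, and 39.0 and 36.2 after OGD, and both libraries after OGD had lower values. By its most abundant transcript alone, Tkt was at 0.64 with PGC-1α without OGD and at -0.94 with OGD in PGC-1α cells. Taldo1, transaldolase, had higher values after OGD (44.0, 49.4, 60.8 and 69.6 FPKM), with log2 fold changes of 0.46 and 0.49. Rpia, the ribose phosphate isomerase, was at 21.9, 19.2, 31.5 and 24.9 FPKM, with log2 fold changes of 0.51 and 0.36 after OGD. Rpe, the epimerase, was nearly constant at 15.3 to 16.6 FPKM.

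Of the genes of glycogen synthesis, Gyg and Gbe1 passed 1.5-fold in a comparison. Gyg, glycogenin, which primes a glycogen particle, was at 29.0 FPKM in Ctrl and 17.5 in PGC-1α, and 24.3 and 23.0 after OGD, and its log2 fold change with PGC-1α was -0.70 without OGD and -0.08 after OGD. Gbe1, the branching enzyme, was at 5.37, 7.48, 4.82 and 2.27 FPKM, and was lowest in PGC-1α+OGD. Its log2 fold change with PGC-1α was 0.41 without OGD and -0.83 after OGD, and that of PGC-1α+OGD vs PGC-1α was -1.37. The phosphoglucomutase Pgm2 was between 16.6 and 24.0 FPKM, Ugp2, which makes UDP-glucose, between 47.4 and 58.6, and Gys1, glycogen synthase of muscle and brain, between 23.7 and 30.003, and none of them passed 1.5-fold in the 4 comparisons.

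The phosphorylases release glucose 1-phosphate from glycogen. Pygl, the liver form, was at 54.7 FPKM in Ctrl and 44.5 in PGC-1α, and 38.0 and 32.96 after OGD, with log2 fold changes of -0.51 and -0.42 after OGD. Its most abundant transcript alone was at -1.70 with PGC-1α after OGD and at -1.90 with OGD in PGC-1α cells, where its other transcript took up most of the level. Pygb, the brain form, was at 21.3 FPKM in Ctrl and between 25.4 and 25.7 in the other libraries. Neither passed 1.5-fold in the 4 comparisons, and the share of Pygb in both was 28.0% in Ctrl and 36.5% in PGC-1α, and 40.1% and 43.8% after OGD.

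The difference between the PGC-1α effects after and without OGD was taken per gene as the second log2 fold change minus the first. The 2 comparisons share no library, but may share transfected cultures. A low value in the Ctrl library lowers this difference by itself, and Ctrl was lowest for 17 of the 33 genes. Of these genes, 30.3% had this difference above 0, against 50.7% of all genes. It was below 0 for 23 of the 33 genes, and the median was -0.21, against 0.0056 for all genes. It was -0.58 or less for 5 genes, namely Gbe1 (-1.24), Pgls (-0.90), Tpi1 (-0.78), Pfkl (-0.74) and Pgd (-0.69), and 0.58 or more for Pfkfb2 (1.11) and Gyg (0.62), against 7.28% and 7.69% of all genes. All 6 genes of lower glycolysis had a difference below 0, from -0.52 for Pgk1 to -0.05 for Eno2. Even so, 14 of the 33 genes were above 0 in both comparisons and 9 were below 0 in both, which is 69.7% on the same side, against 53.7% of all genes. The difference between the effects has no replicate check and was not tested.

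**Figure D5:**
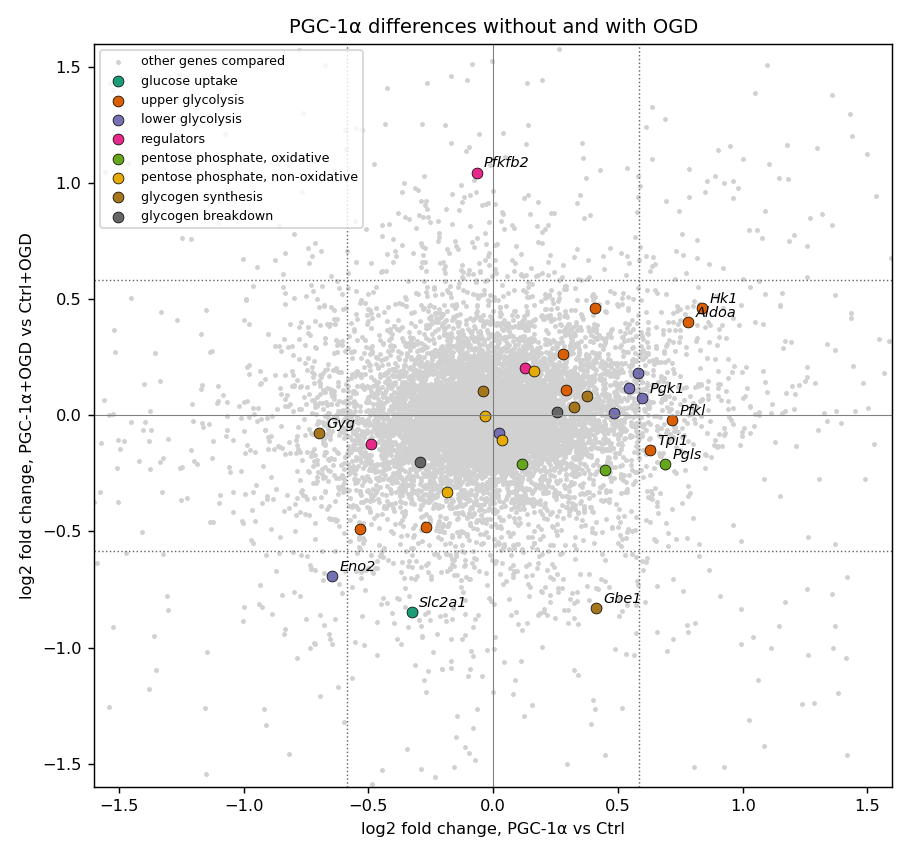
log2 fold change of PGC-1α vs Ctrl (horizontal axis) against that of PGC-1α+OGD vs Ctrl+OGD (vertical axis) for the 33 genes, coloured by branch, over all other genes compared in grey (142 lie outside the axes). Dotted lines mark 1.5-fold, and genes past it in 1 or both comparisons are named. Most glycolysis enzymes lie right of 0 and close to 0 on the vertical axis.

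The wider pathway was read from a list of 79 other genes of glucose and glycogen metabolism, of which 49 were present and 45 compared. With PGC-1α without OGD, 4 were higher and 2 lower, or 8.89% and 4.44% against 4.91% and 5.63% of all genes. After OGD, 2 were higher and 3 lower with PGC-1α, or 4.44% and 6.67% against 3.08% and 3.82%. Pygm, the muscle glycogen phosphorylase, was at 4.49 FPKM in Ctrl and 13.9 in PGC-1α, and 3.87 and 10.2 after OGD. It was the one gene of the list that was higher with PGC-1α in both comparisons, with log2 fold changes of 1.44 and 1.20. Stbd1, which ties glycogen to membranes for its breakdown in lysosomes, had the highest mean of the glycogen genes of this list and was at 76.2, 34.1, 55.4 and 40.1 FPKM, with log2 fold changes of -1.14 and -0.46. Without OGD, Phkg2, a catalytic subunit of phosphorylase kinase (0.66), and Gpd1l, a relative of glycerol 3-phosphate dehydrogenase (0.62), were also higher, and Gpd1l was at 0.56 by its most abundant transcript alone. Wdr45, an autophagy protein that the list held without a role in glycogen, was lower (-0.71), and its most abundant transcript alone was at -0.05. After OGD, G6pc3, a glucose 6-phosphatase of most tissues (1.22), was higher with PGC-1α, and Adpgk, the ADP-dependent glucokinase (-1.01), Pgm3, which serves amino sugars (-1.53), and Phkg2 (-0.93) were lower. The direction for G6pc3 turned by its most abundant transcript alone, which was at -1.31. By that measure Phkg2 was at -0.54 in this comparison and so under 1.5-fold. Both genes with low values, Phkg2 and Pgm3, were between 2.14 and 5.19 and between 1.52 and 6.26 FPKM.

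In Ctrl+OGD vs Ctrl, 4 of these 45 genes were higher and 6 lower, or 8.89% and 13.3% against 6.2% and 7.71% of all genes. In PGC-1α+OGD vs PGC-1α, 0 were higher and 3 lower, or 0% and 6.67% against 3.82% and 5.22%. Akr1b3, the aldose reductase of the polyol pathway, had the highest mean of the genes of side branches and was at 70.3, 93.1, 114 and 112 FPKM, a log2 fold change of 0.69 in control cells. Adpgk (0.93), Pgm3 (0.85) and Phkg2 (0.98) were higher in the same comparison, and they were lower in PGC-1α+OGD than in Ctrl+OGD, so that Ctrl+OGD was their highest library. By its most abundant transcript alone, Adpgk was at -0.02 with OGD in control cells and at -0.05 with PGC-1α after OGD. Txnip, which restrains glucose uptake and is induced by glucose, was at 46.1, 53.9, 27.6 and 37.5 FPKM, and its log2 fold changes after OGD were -0.72 and -0.51. Pcx, pyruvate carboxylase (-0.81 and -0.90), and Khk, ketohexokinase (-0.76 and -0.77), were lower after OGD in both kinds of cells, and for Khk the first was -0.34 by its most abundant transcript alone. Phkg1 (-0.75), Wdr45 (-0.79) and G6pc3 (-0.95) were lower after OGD in control cells, where the most abundant transcript of Wdr45 alone was at 0.35 and so in the other direction. Phkg2 was lower after OGD in PGC-1α cells (-0.61). H6pd, the glucose 6-phosphate dehydrogenase of the endoplasmic reticulum, was between 36.1 and 49.2 FPKM and below 1.5-fold in the 4 comparisons.

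Promoter sequences were examined because several glycolysis genes differed in the same direction. RefSeq start sites on GRCm38.p6 gave 49 windows of 300 bases, from 250 before to 50 after a start, for all 34 genes. The letters ACGTG, the core of the hypoxia response element, were found on either strand in 22 of the 49 windows (44.9%), against 26.2% of 10733 windows of the genes compared and 19.6% of all 32851 windows. They were present in a window of 18 of the 34 genes. Windows of the same gene can overlap, so a match can be counted more than once, as for Aldoa. The share of all genes with the letters was not computed. Neither this count of genes nor those below therefore have a background per gene, and no excess is read from them. Of the 8 genes higher in Ctrl+OGD vs Ctrl, 3 (Pgk1, Pkm and G6pdx) had them, and so did 3 of the 6 genes higher in PGC-1α vs Ctrl (Hk1, Aldoa and Pgk1). Genes with lower values had them too, including Gyg, Slc2a1 and Hk2. The E box CACGTG, which contains ACGTG, was in 8.16% of the windows, against 10.2% of those of the genes compared. The letters AAGGTCA, the core of the element bound by estrogen-related receptors, through which PGC-1α is known to act, were in 2 windows (4.08%, Eno1 and Tpi1), against 3.10%, and the longer form TCAAGGTCA was in 0, against 0.261%. The CCAAT box was in 38.8% of the windows, against 38.7%, and the GC box GGGCGG in 67.3%, against 64.0%. A match gives letters only and does not show binding.

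The windows before the start of 3 genes are printed. Pgk1 was lowest in Ctrl and holds ACGTG (or CACGT, its reverse complement) in a pair of places, Hk2 also holds it in a pair of places and had lower values with PGC-1α and after OGD, and Eno1 is the member with AAGGTCA before its start. Capitals mark these letters, and each sequence runs 5′ to 3′ on the gene's strand up to the base before the start.
Pgk1 (chrX:106186850-106187099, GRCm38.p6, plus strand): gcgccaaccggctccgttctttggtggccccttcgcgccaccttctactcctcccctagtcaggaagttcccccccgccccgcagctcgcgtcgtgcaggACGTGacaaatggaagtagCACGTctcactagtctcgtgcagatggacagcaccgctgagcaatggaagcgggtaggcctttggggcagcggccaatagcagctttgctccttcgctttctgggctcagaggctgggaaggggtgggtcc
Hk2 (chr6:82774455-82774704, GRCm38.p6, minus strand): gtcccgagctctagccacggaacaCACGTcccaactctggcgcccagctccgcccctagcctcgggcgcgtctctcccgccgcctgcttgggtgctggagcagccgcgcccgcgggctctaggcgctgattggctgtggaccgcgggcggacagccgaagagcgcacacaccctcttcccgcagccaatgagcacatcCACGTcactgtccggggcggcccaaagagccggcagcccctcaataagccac
Eno1 (chr4:150236458-150236707, GRCm38.p6, plus strand): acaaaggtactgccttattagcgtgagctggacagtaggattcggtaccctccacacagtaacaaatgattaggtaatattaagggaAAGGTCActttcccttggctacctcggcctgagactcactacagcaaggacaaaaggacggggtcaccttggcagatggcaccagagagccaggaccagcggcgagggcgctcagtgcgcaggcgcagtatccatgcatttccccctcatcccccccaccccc
The ACGTG matches began 131 and 150 bases before the start of Pgk1 and 52 and 226 bases before that of Hk2, and the AAGGTCA of Eno1 began 163 bases before its start.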

How the data were processed

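Poly(A) RNA of 4 HT-22 libraries, 1 per group, was sequenced as paired-end reads after stranded preparation. The authors aligned the reads to GRCm38 with HISAT2 2.1.0, per the labels, and the deposited table gives a value for each transcript and library. These values are treated as the authors' FPKM because of their range and totals, since neither the table nor the paper names the unit, and the quantification program is not given in the sources used here. Depth is unknown. Among low values of genes with 1 transcript, at most 33% lay within 0.1 of a whole step, at the best of many step sizes tried. The share that arbitrary values would reach was not computed, so no depth is read from it.

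Every deposited transcript reaches 0.500 FPKM in at least 1 library, so the table was filtered in a way not given in the sources used here. Of 25889 transcripts, 25822 were matched by identifier without version to GENCODE M21, and values were summed per gene symbol. Genes whose mean reached 1 FPKM were compared as differences of log2(FPKM + 1), and 1.5-fold or more was counted. No test was run, since no group has a replicate. The genes and lists were chosen with earlier results of these data known. All listed genes are named, as are other pathway genes past 1.5-fold in a comparison and the most abundant of each of their groups, except 1 gene that is counted but not reported here. Neuronal, astrocyte, microglial, oligodendrocyte, fibroblast and proliferation markers were read as summed levels. Reads shared with pseudogenes, which are common for glycolysis genes, could not be separated. Alternatives were other pseudocounts, filters, scalings, transcript choices and a 2-fold line. The calculations were tested on simulated data and run with pandas 2.3.3 and numpy 2.4.6 under Python 3.11.15, with figures by matplotlib 3.10.9.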

Additional observations from a re-analysis of the deposited data

How the results depend on the processing

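With 1 library per group, no replicate could be left out, and reads per library are unknown. No paired analysis was possible because each group has 1 library. Below, a count of genes moved when it changed by more than 1.5 times, a median when it changed by 0.1 or more on the log2 scale, and an isozyme share when it changed by 10 percentage points or more. The medians of the 33 genes in the 4 comparisons moved under none of the alternatives. With the line at 2-fold, the higher genes numbered 0 with PGC-1α without OGD, 1 with OGD in control cells and 1 with OGD in PGC-1α cells, and the lower genes 0 with PGC-1α both without and after OGD, where at most 1.94% of all genes passed in either direction of any comparison. With scaling to the same column total, 4 genes were higher and 2 lower in Ctrl+OGD vs Ctrl, against a background of 4.69% and 10.4%. With a pseudocount of 0.1 or 0.01, 4 genes were lower in PGC-1α vs Ctrl, in place of 2. The share of all genes that were lower there was then 7.73% and 7.99%, in place of 5.63%. With a mean of at least 5 FPKM, which leaves out Eno2, Gbe1, Tigar and the 6-phosphofructo-2-kinases, the higher genes numbered 0 with PGC-1α after OGD and 0 with OGD in PGC-1α cells, and the lower genes 1 with PGC-1α without OGD, 1 with PGC-1α after OGD, and 0 with OGD in either kind of cells, beside 2.43% to 6.32% of all genes. With the transcript of the highest mean in place of the sum, 0 genes were higher and 5 lower in PGC-1α+OGD vs Ctrl+OGD. The background there was 5.84% higher and 7.23% lower. By the same transcript choice, 1 gene was higher and 4 lower with OGD in PGC-1α cells, against a background of 7.46% and 8.73%. The median difference between the PGC-1α effects was then -0.33. The Pfkfb4 share was then 40.5% in Ctrl, 32.5% in PGC-1α and 68.9% in PGC-1α+OGD, and the Pygb share 72.0% in PGC-1α+OGD, since this transcript choice leaves out part of the other isozymes' levels. By that transcript, a value past 1.5-fold changed sign for 1 of the 33 genes, Eno2 in PGC-1α+OGD vs PGC-1α (-0.19), and for the other pathway genes G6pc3 with PGC-1α after OGD (-1.31), and Wdr45 (0.35) and Adpgk (-0.02) with OGD in control cells. Summing protein-coding transcripts alone or using no filter moved none of these counts, medians or shares.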

Other observations

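Several enzymes showed exchanges between transcripts of 1 gene. For Pygl, the liver glycogen phosphorylase, one transcript was at 49.1, 40.0, 34.6 and 10.0 FPKM in the order used above, and its other transcript was at 5.58, 4.47, 3.39 and 23.0 FPKM. The exchange was thus seen in the PGC-1α+OGD library alone. For Tkt, transketolase, the shorter transcript was at 17.0, 0, 11.3 and 10.6 FPKM and the longer one at 31.8, 50.01, 27.7 and 25.6 FPKM, so that the shorter one was listed at 0 in the PGC-1α library. For Pfkp, one transcript was at 5.85, 0.02, 0.74 and 5.84 FPKM beside a main transcript at 22.2, 37.1, 31.2 and 39.0 FPKM. For Pgls, the main transcript of Ctrl, at 12.2 FPKM, was at 3.21 in PGC-1α and 2.69 in Ctrl+OGD, where another transcript was at 16.5 and 15.1 FPKM and listed at 0 in Ctrl. Whether these exchanges come from splicing or from the assignment of reads to transcripts was not tested.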
